A study of Mus musculus with 24 samples.

Results

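Imprinted genes are transcribed from 1 parental copy, and 10 of them were followed through the H3K27ac peak lists of adult mouse liver: H19, Igf2, Igf2r, Peg3, Dlk1, Meg3, Cdkn1c, Grb10, Plagl1 and Zim1. They were chosen by name, among 26195 genes of the same annotation classes (protein-coding, lincRNA and processed transcript). Every peak that overlapped the body of one of these genes, or the 10 kb on either side of it, was taken. Overlapping peaks of the lists were merged into union regions, and 49 of the 119348 union regions on the autosomes and X lay in these windows.

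The series mapped H3K27ac, an acetylated histone H3 lysine found at active promoters and enhancers, by ChIP-seq in livers of mice aged 8 weeks. It compared the sexes in C57BL/6J mice (B6 below) and in CAST/EiJ mice (CAST below), which are inbred and come from different subspecies, to ask which sex differences in cis-regulatory elements (CREs) the strains share. The 24 samples were 20 livers and 4 inputs, with 5 livers and 1 input each for B6 males, B6 females, CAST males and CAST females, no treatment or transgene being named for any of them. Groups were read from the sample titles, because a separate strain field calls all females CAST and all males B6, which contradicts the titles of the B6 females and the CAST males. The reads of a group were combined before peaks were called, so that each group is represented by 1 list, no value has a replicate error, and no test was possible. The lists held between 79862 peaks (B6 males) and 90228 peaks (CAST males). The lists do not give read depth, which was not analysed here. Whole liver was used, and each of 10 hepatocyte genes had a promoter call in the 4 lists, as did 5 of 6 endothelial, 3 of 6 cholangiocyte, 1 of 6 stellate and 1 of 6 Kupffer cell markers. Among all genes, 55.1% had such a call in the 4 lists. Fewer cells of a type and less mark per cell cannot be told apart in such samples.

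In imprinting, a differentially methylated region inherited from 1 parent decides which copy of a gene cluster is read, often through a long noncoding RNA or an insulator. Many imprinted genes set fetal growth, with paternally expressed genes tending to promote it and maternally expressed genes tending to restrain it, and a number of them are switched off in the liver after birth. H19, Igf2r, Meg3, Cdkn1c, Grb10 and Zim1 are read from the maternal copy in most tissues, and Igf2, Peg3, Dlk1 and Plagl1 from the paternal copy. The lists do not separate the parental copies, so that a peak here can lie on either of them.

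The mark was called at 7 of the 10 genes and not at the other 3, where it was not detectable at the depth of these lists. Igf2r, Peg3, Meg3, Cdkn1c, Grb10, Plagl1 and Zim1 each had a peak within 2.5 kb of an annotated transcript start, called here a promoter call, in every list. The background was 55.1% of all genes with a promoter call in the 4 lists and 36.0% with a promoter call in none. H19, Igf2 and Dlk1 had no promoter call and no peak anywhere in their windows in any list, a state shared by 23.9% of all genes. The call was present at 5 of the 6 maternally expressed and 2 of the 4 paternally expressed genes. So few genes cannot show whether it went with the copy they are read from. The gene windows differed widely in how much of them was covered by peaks. Grb10 had the most in 3 of the 4 lists, with 12.5% and 12.2% in B6 males and females and 10.5% and 8.69% in CAST males and females, against medians over all genes of 4.58% to 5.05%. Igf2r had 8.62% to 10.4%, Meg3 6.75% to 8.20% and Cdkn1c 6.15% to 11.4%. Peg3 was near the median of all genes, with 4.73% to 5.50%, while Plagl1 reached 0.395% to 2.16% and Zim1 0.605% to 0.697%.

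**Figure D1:**
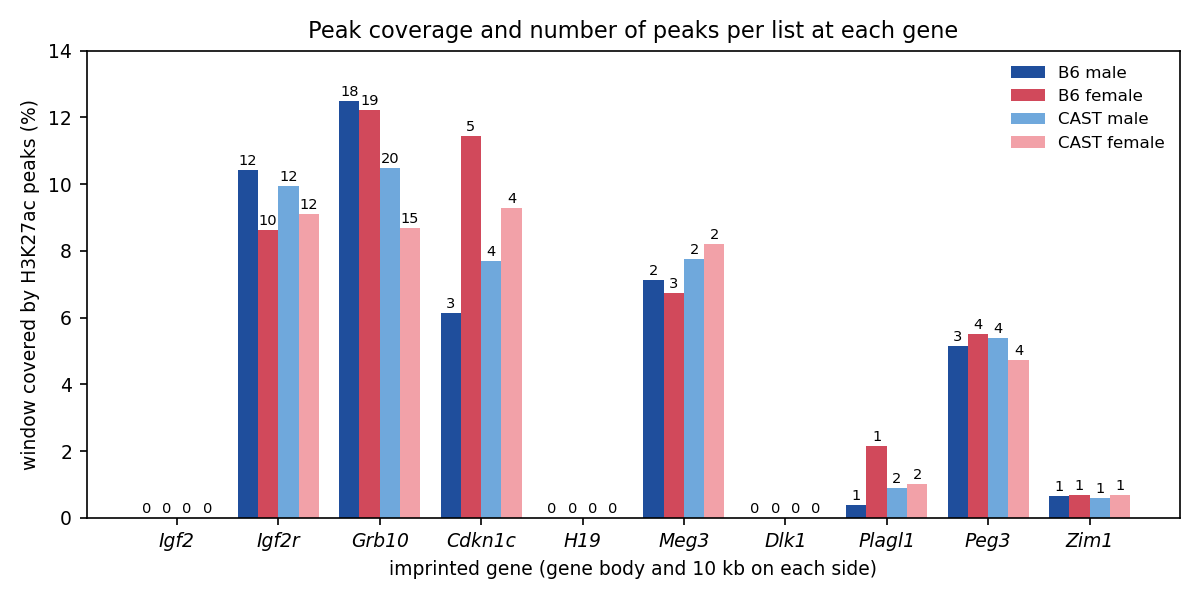
Share of each gene window (gene body and 10 kb on each side) covered by H3K27ac peaks, in percent, with 1 bar per list and the number of peaks printed above it. Igf2, H19 and Dlk1 hold 0 peaks in the 4 lists, and Grb10 holds between 15 and 20.

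Of the 49 regions, 26 were called in all 4 lists, or 53.1% (95% Wilson interval 39.4 to 66.3, covering counting error only), where 40.4% of all union regions were. A further 13 were called in a single list, 26.5% against a background of 32.4%. The regions called in every list were wide, with a median of 1382 bp, and those in a single list were narrow, with a median of 265 bp. The same contrast held over the whole series, with medians of 1360 and 295 bp. By position, 19 regions came within 2.5 kb of a start of one of the 10 genes, 3 lay at a start of another gene, among them Airn, and 27 were distal, farther than 2.5 kb from any start. The distal share was 55.1% (41.3 to 68.1), compared with 75.9% of all union regions. The windows are drawn around annotated genes, while all union regions include those far from any gene, so that these shares are not like for like. Of the regions near any start, 15 of 22 were called in every list, or 68.2% (47.3 to 83.6), beside 63.0% of all regions near a start. Of the distal regions it was 11 of 27, or 40.7% (24.5 to 59.3), beside 33.3% of all distal regions, and both intervals took in the background share.

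The level of the mark was given by the fold enrichment over background that the peak caller wrote for each peak, and by the rank of its score in its own list, as the percentage of peaks at or below it. The regions of the 10 genes had median fold enrichments of 2.65 for B6 males, 2.67 for B6 females, 2.44 for CAST males and 2.61 for CAST females, where all regions had 2.58, 2.56, 2.63 and 2.64 in the same order. The highest ranks in the lists, 88.8, 88.1, 88.6 and 87.5, belonged to Igf2r or Peg3.

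Igf2 encodes insulin-like growth factor 2, the main growth ligand of the fetus, and H19 a noncoding RNA abundant in fetal liver. Both are read from a shared cluster on chromosome 7, H19 from chr7:149761434-149764048 and Igf2 from chr7:149836673-149852721, on the minus strand. The entire cluster lay in a stretch free of peaks in the 4 lists, chr7:149722548-150154215, which was 431.668 kb long. H19 was 38.9 kb from the nearest region on 1 side, and Igf2 301 kb from the nearest on the other. The stretch also contained Nctc1, Igf2as, the insulin gene Ins2, Gm6471 and the tyrosine hydroxylase gene Th. Within single lists the peak-free interval was 432 kb in male and 471 kb in female B6 livers, and 472 kb in male and 471 kb in female CAST livers. Between 0.923% and 1.13% of the intervals between neighbouring peaks of a list were as long. Each interval counted once whatever its length, and the share of the genome lying in such intervals was not computed.

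Dlk1, a transmembrane protein of the Notch ligand family made by fetal hepatoblasts, lay at chr12:110691033-110701546 in a shorter stretch without peaks, chr12:110676511-110738714, of 62.2 kb. It was the only gene in it. Per list the interval was 71.7 kb in male and 70.9 kb in female B6 livers, and 62.3 kb in male and 62.4 kb in female CAST livers. Counted in the same way, 6.26% to 7.07% of intervals were as long. In the B6 lists, where 599 and 579 peak numbers are missing over the whole list, no number was missing across the windows of H19, Igf2 or Dlk1. The CAST lists have no missing number anywhere, so that their numbering carries no trace of peaks removed.

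The starts of the genes without the mark varied in their content of CG dinucleotides. The capitals mark each CG in the 270 bases before and 30 bases from the start, on the mm9 assembly. The Igf2r promoter, called in every list, is given first, followed by the first start of H19, which had no peak.
Igf2r, chr17:12962501-12962800, minus strand: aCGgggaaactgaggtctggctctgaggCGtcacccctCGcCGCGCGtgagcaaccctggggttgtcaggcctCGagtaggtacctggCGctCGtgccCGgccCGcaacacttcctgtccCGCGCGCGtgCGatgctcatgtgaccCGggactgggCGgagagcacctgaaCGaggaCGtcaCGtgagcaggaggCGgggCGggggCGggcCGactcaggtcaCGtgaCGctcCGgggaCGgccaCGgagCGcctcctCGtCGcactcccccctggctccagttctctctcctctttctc
H19, chr7:149764019-149764318, minus strand: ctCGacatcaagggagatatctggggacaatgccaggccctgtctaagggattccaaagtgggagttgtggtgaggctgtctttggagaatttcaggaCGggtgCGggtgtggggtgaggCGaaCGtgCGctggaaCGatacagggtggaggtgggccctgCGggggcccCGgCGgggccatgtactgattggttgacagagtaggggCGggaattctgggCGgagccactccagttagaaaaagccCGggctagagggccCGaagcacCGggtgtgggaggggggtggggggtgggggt
The Igf2r window held 33 CG and the H19 window 15, where the median over all genes was 9. In the 1000 bases centred on these starts, the observed over expected CG ratio was 0.902 for Igf2r and 0.478 for H19, and the median of the 26195 genes was 0.496. Dlk1 had 0.587 at its first start and reached 0.829 at the start at chr12:110691665, higher than 84.8% of genes. At the first starts of the other marked genes the ratio was 0.881 for Cdkn1c, 0.729 for Plagl1, 0.602 for Peg3, 0.562 for Zim1, 0.521 for Meg3 and 0.448 for Grb10, which had 1.06 at its start at chr11:11937404. At their first starts H19 and Dlk1 thus lay within the range of the marked genes, and Igf2, with 0.0608 at chr7:149852721, lay under it. Igf2 too was richer at other starts, with 0.663 at chr7:149847210, 0.758 at chr7:149844709 and 0.821 at chr7:149845394, all within that range. In windows placed like those printed, the Igf2 start at chr7:149845394 held 35 CG and the Dlk1 start at chr12:110691665 held 45. Both were above the 33 of Igf2r.

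Igf2r encodes the mannose 6-phosphate receptor, which carries IGF2 to the lysosome for degradation. Its window held 17 regions, 6 of them in every list. The promoter region, chr17:12961108-12963330, spanned exon 1 and had fold enrichments of 4.98 in male and 4.83 in female B6 livers, and 4.35 in male and 4.40 in female CAST livers. It ranked at percentiles 84.3 to 88.8 and differed little by sex, the ratio of male to female fold being 1.03 in B6 and 0.989 in CAST. The start of Airn, the noncoding RNA that silences the paternal copy of Igf2r in cis, lies inside Igf2r. The region there, chr17:12933529-12935519, had its summit 27.9 kb from the start of Igf2r and was called in the 4 lists at 2.82, 3.11, 3.77 and 3.58 fold in B6 males, B6 females, CAST males and CAST females. The highest-ranked distal region, chr17:12951426-12953354, lay in an intron 10.1 kb from the start and had 2.84, 2.95, 3.05 and 3.18 fold in the same order. The other distal region called in every list, chr17:12917964-12919339, had 2.65, 2.47, 2.71 and 2.92 fold.

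Most of the smaller Igf2r regions came from 1 list. Of the 17 regions, 8 were called once, 3 in B6 males, 3 in CAST males and 2 in CAST females, and the highest of these ranked at percentile 56.3. A region of 409 bp at an annotated internal start, chr17:12943795-12944203, was called in males of both strains and in neither female list. Its fold enrichments were 2.04 in B6 males and 1.76 in CAST males, with ranks of 15.8 and 3.10, near the bottom of both lists. Its neighbour chr17:12944656-12945069 was called in B6 females, CAST males and CAST females at 2.07, 2.42 and 2.08 fold, and not in B6 males. Merging regions up to 500 bp apart joined these neighbours into a region called in every list.

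Grb10 encodes an adaptor that binds the insulin and IGF1 receptors and dampens their signal. Its window had more regions than that of any other of the 10 genes, 20, of which 11 were in every list, 7 near 1 of its annotated starts and 13 distal. The regions fell into 2 groups, one near its first start and a larger one from the middle of the gene to its 3' flank. Between them, chr11:11875377-11936244, a stretch of 60.9 kb, had no region in any list, although 2 annotated starts fall in it and the one at chr11:11926735 has an observed over expected CG ratio of 0.854. The strongest region of the gene, chr11:11872606-11873993, was intronic, 65.3 kb from the first start and 1961 bp from an internal one. It had 4.53 fold in male and 4.59 in female B6 livers, and 4.61 in male and 3.91 in female CAST livers, at rank percentiles of 79.4 to 85.0. The distal region with the highest rank in any list (percentile 77.8, in B6 males), chr11:11864993-11866700, had 2.81, 2.67, 2.61 and 2.69 fold in the same order. Another distal region, chr11:11874254-11875376, had a higher fold in 3 of the lists, with 3.11, 2.56, 3.04 and 3.40. A region of 3227 bp, chr11:11851186-11854412, had 3.29 and 3.22 fold in B6 males and females but 2.27 and 2.14 in CAST males and females.

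The group near the first start of Grb10 held the only region of the 49 that was female-only in both strains. This region, chr11:11937649-11938153, was called at 4.10 fold in B6 females and 2.88 fold in CAST females, ranked 70.0 and 46.4, and was absent from both male lists. The next region, chr11:11937120-11937430, over an annotated start, had 3.64 fold in B6 females and 2.29 and 3.51 fold in CAST males and females, and was absent from the B6 male list. In CAST, its male to female ratio was 0.653. The third, chr11:11936245-11936907, was called in every list, at 1.96 fold in male and 3.19 in female B6 livers, and 2.34 in male and 1.97 in female CAST livers. In B6 its ratio was 0.616, while in CAST it was 1.19, on the other side of 1. It ranked at percentiles 3.95 and 56.1 in B6 males and females, and 21.7 and 4.23 in CAST males and females. The lower value of each strain thus came from a peak near the bottom of its list. Merging regions up to 500 bp apart joined these regions into 1, after which no region was female-only in both strains. The sequence of the female-only region is given because its calls differed by sex in both strains. The window is 300 bases centred on the summit, with each CG in capitals.
Grb10, chr11:11937750-11938049, minus strand: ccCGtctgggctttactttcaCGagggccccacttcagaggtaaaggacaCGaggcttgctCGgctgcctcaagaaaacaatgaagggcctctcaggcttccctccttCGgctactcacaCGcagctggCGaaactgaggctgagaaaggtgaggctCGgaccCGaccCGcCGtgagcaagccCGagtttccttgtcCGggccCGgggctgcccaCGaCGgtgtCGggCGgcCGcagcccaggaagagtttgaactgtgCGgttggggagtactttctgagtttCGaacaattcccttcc
This window held 21 CG, more than 92.5% of the summit windows of all regions.

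Toward the 3' end of Grb10 lay regions with male calls alone. The regions chr11:11831036-11831322, over exonic sequence, and chr11:11846258-11846790, at an internal start, were male-only in both strains. The first had 1.49 fold in B6 males and 2.0 in CAST males, and the second 1.87 and 1.81. Neither ranked above percentile 59.2, and the second ranked at 26.0 and 18.1. In the 3' flank of the gene, chr11:11828473-11828719 was called in B6 females alone, at 2.77 fold and percentile 73.7. With the Igf2r region, 3 of the 49 regions were male-only in both strains and 1 was female-only.

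**Figure D2:**
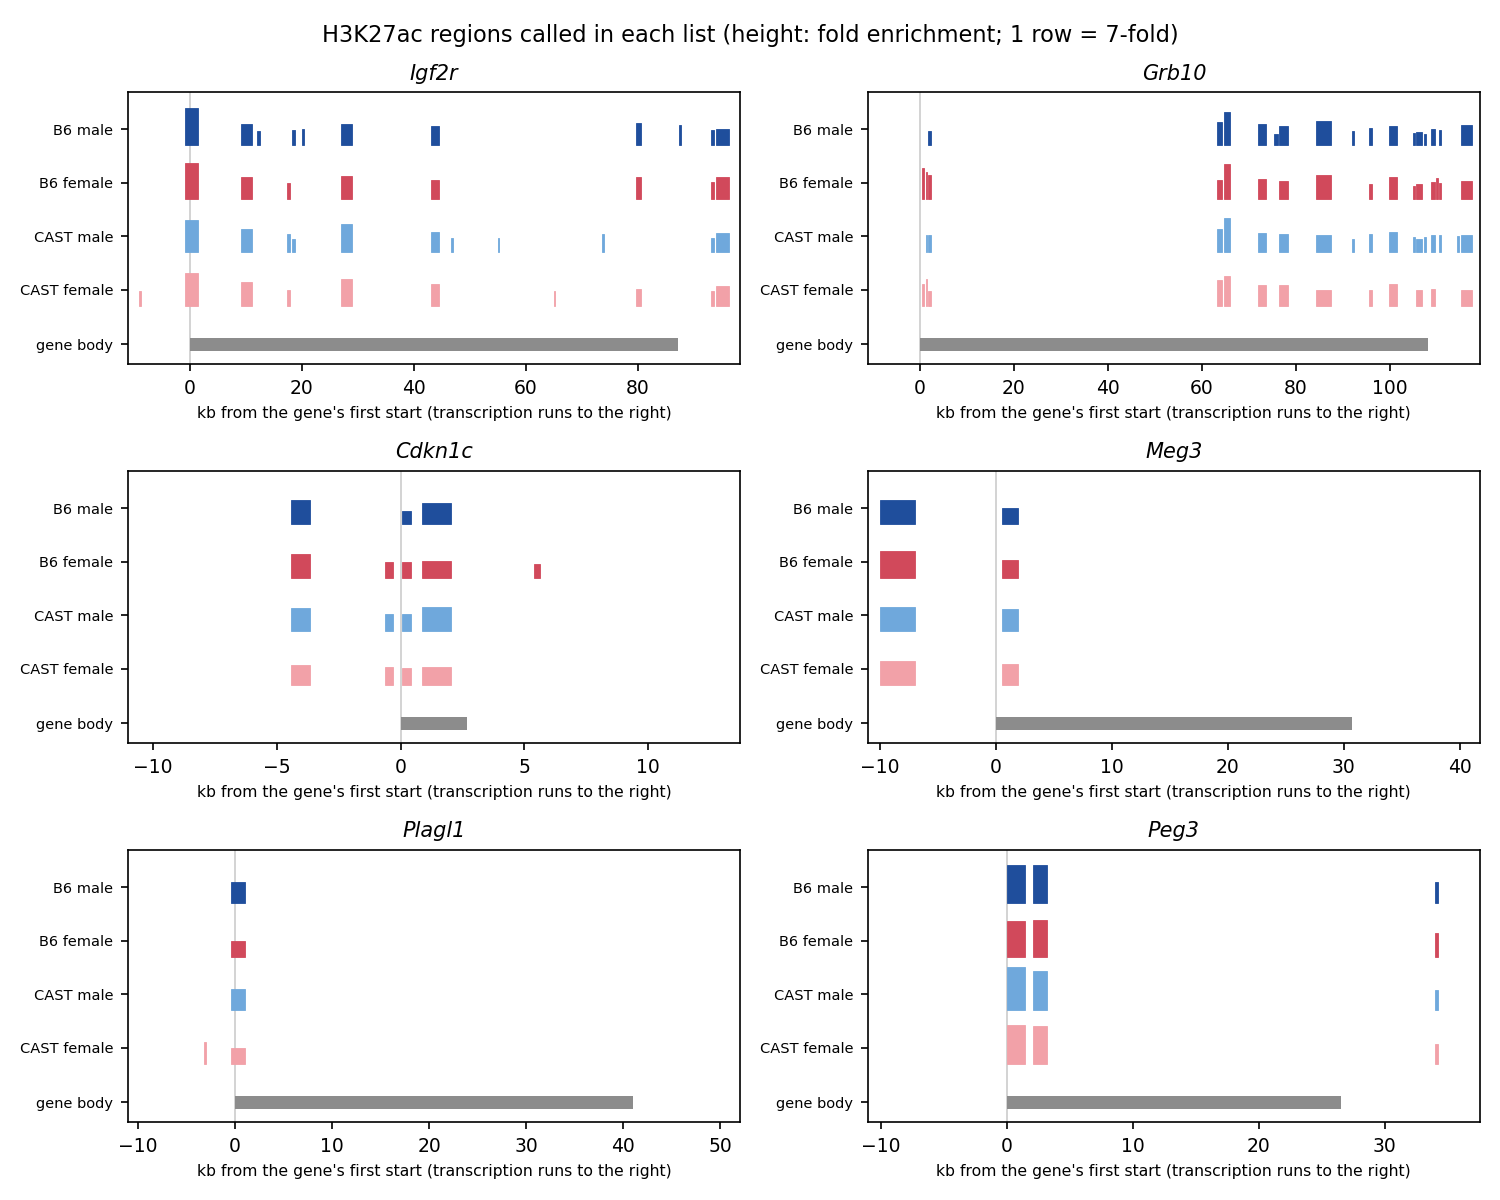
Regions called in each list at 6 genes, by distance in kb from the first start of the gene, drawn at the extent of the union region with its height set by the fold enrichment of that list (1 row spans 7-fold). In Grb10 the regions near the first start are sparse in the male lists, and a stretch of 60.9 kb without regions separates them from the rest.

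Cdkn1c encodes p57, an inhibitor of cyclin-dependent kinases that stops cell division. It is a short gene, chr7:150644255-150646955, and 3 regions lay at its start. The largest, chr7:150644903-150646103, inside the gene, had 2.89 fold in male and 2.3 in female B6 livers, and 3.21 in male and 2.35 in female CAST livers. The male value was above the female value in both strains, with ratios of 1.26 and 1.36, under the 1.5 used here as a limit, while the peaks were wider in the female lists (1008 bp against 805 in B6, and 908 against 872 in CAST). The region over the first exon, chr7:150646526-150646905, had 1.85, 2.11, 2.35 and 2.19 fold in the same order. The region just upstream, chr7:150647252-150647563, was called in B6 females, CAST males and CAST females at 2.15, 2.33 and 2.36 fold and not in B6 males. A distal region 4.08 kb upstream, chr7:150650599-150651394, had 3.3, 3.17, 3.06 and 2.61 fold in B6 males, B6 females, CAST males and CAST females. Its fold was above that of the largest region at the start in 3 of the 4 lists, CAST males being the exception.

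Meg3 is the long noncoding RNA of the Dlk1 cluster, and its start lies 77.7 kb from the end of Dlk1. Unlike Dlk1 it was marked in every list. The promoter region, chr12:110779806-110781173, was modest, at 2.17 fold in male and 2.39 in female B6 livers, and 2.96 in male and 2.69 in female CAST livers, and ranked between percentiles 13.8 and 48.4. A wider region of 3018 bp upstream, chr12:110769213-110772230, had more of the mark in each list. Its fold enrichments were 3.27 in male and 3.55 in female B6 livers, and 3.23 in male and 3.15 in female CAST livers, and its ranks 77.3 to 83.1. Its summit was 8.94 kb before the start, between genes. From the end of the promoter region to the end of the window, 38.8 kb, no further region was called.

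Plagl1 encodes a zinc finger transcription factor that slows cell growth. Its promoter region, chr10:12810095-12811502, had 2.89 fold in B6 males against 2.13 in B6 females, and 2.88 in CAST males against 2.13 in CAST females. The ratios of male to female fold, 1.36 and 1.35, were close in the 2 strains and under 1.5. In B6 the extent ran against the fold, the peaks in this region covering 241 bp in male and 1319 bp in female livers. In CAST it ran with the fold, at 554 bp in male and 391 bp in female livers. The female values ranked low, at percentiles 12.9 and 9.43, against 45.9 and 44.0 for the males. A region of 234 bp, 3.14 kb upstream, chr10:12807283-12807516, was called in CAST females alone at 2.86 fold. Nothing was called from the promoter region to the end of the window.

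Peg3 and Zim1, neighbouring zinc finger genes on chromosome 7, are read from opposite parental copies. Peg3 had the highest fold enrichments of the 10 genes, in a pair of regions inside its 5' end. The one next to the start, chr7:6681641-6683087, had 5.14 fold in male and 4.83 in female B6 livers, and 5.73 in male and 5.16 in female CAST livers. The intronic one, chr7:6679929-6681045, had 5.18, 4.96, 5.2 and 5.03 fold in the same order. Both ranked between percentiles 86.8 and 88.6, and their male to female ratios lay between 1.03 and 1.11. The rest of the Peg3 window up to the start of Zim1, 30.8 kb, was empty. Zim1 had 1 region, of 296 bp over its first exon, chr7:6648879-6649174, at 2.89, 3.25, 2.72 and 2.58 fold in B6 males, B6 females, CAST males and CAST females. It was narrow, but it was called in every list. No distal region was found at either gene.

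**Figure D3:**
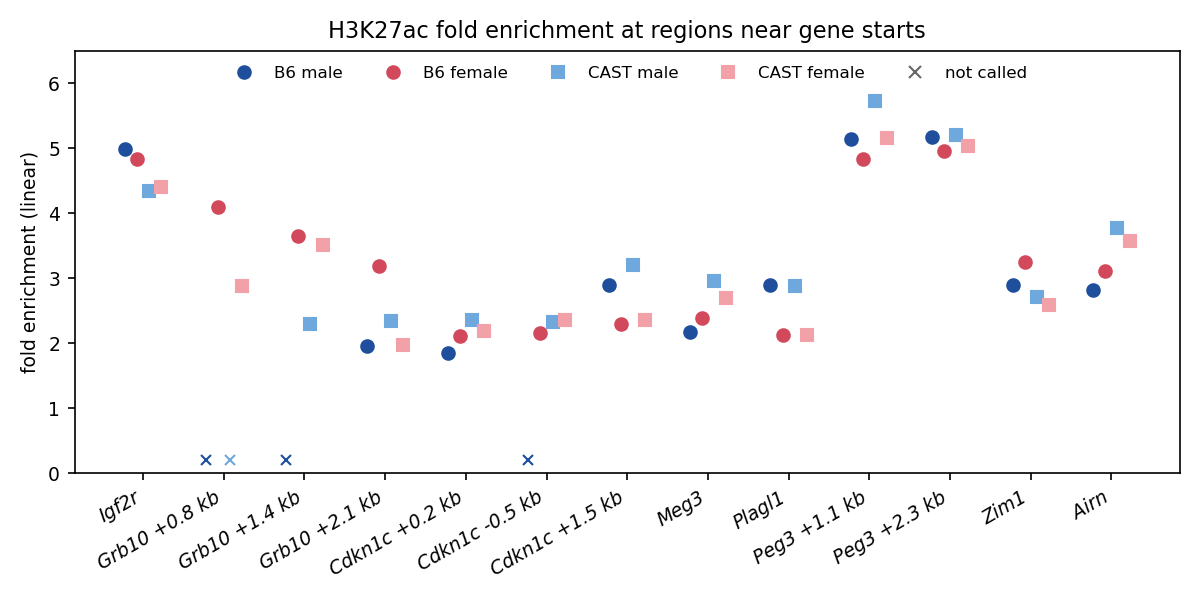
Fold enrichment over background (linear axis from 0) at the regions within 2.5 kb of the first start of each marked gene, and at the Airn start, with 1 point per list and a cross where the list has no peak. Labels give the distance of the summit from the start. Peg3 lies between 4.83 and 5.73, and the Grb10 region at +0.8 kb is called in the female lists alone.

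The summit windows were searched on both strands for short sequences of factors tied to imprinting or to the liver. They were TGCCGC for ZFP57, a zinc finger protein that protects methylated imprints, CCATNTT for YY1, GGNGGCAG for part of the CTCF site, TGTTTAC for FOXA, TTGCNNAA for C/EBP and CAAAGTCC for HNF4A. TGCCGC can overlap the reverse complement of GGNGGCAG. TGCCGC was in 10 of the 49 windows, or 20.4%, where 5.92% of the windows of all regions had it. These letters are rich in CG: of windows with at least 20 CG, 5 of 9 had it at the 10 genes and 32.7% of 9420 over the series. CCATNTT was in 11 windows (22.4%, against 17.5%), GGNGGCAG in 10 (20.4%, against 11.4%), TTGCNNAA in 9 (18.4%, against 11.5%), TGTTTAC in 4 (8.16%, against 4.45%) and CAAAGTCC in 0 (against 1.57%). Of the windows with at least 20 CG, GGNGGCAG was in 4 of 9 at the 10 genes and in 22.4% over the series. CCATNTT was in 0 of 9 against 10.5%, TTGCNNAA in 1 against 3.72%, TGTTTAC in 1 against 1.13% and CAAAGTCC in 0 against 0.764%. A match is a run of letters and was not shown to be bound.
Of 5 windows with a pair of TGCCGC, the 3 that overlap no UTR, at the Peg3 start, the Airn start and Cdkn1c, follow (the others were at the Plagl1 promoter and at chr11:11937120-11937430 of Grb10), each 300 bases on the strand of the gene (for Airn, the strand of Igf2r). Capitals mark TGCCGC on either strand and, in Peg3, CCATNTT as well.
Peg3, chr7:6681901-6682200, minus strand: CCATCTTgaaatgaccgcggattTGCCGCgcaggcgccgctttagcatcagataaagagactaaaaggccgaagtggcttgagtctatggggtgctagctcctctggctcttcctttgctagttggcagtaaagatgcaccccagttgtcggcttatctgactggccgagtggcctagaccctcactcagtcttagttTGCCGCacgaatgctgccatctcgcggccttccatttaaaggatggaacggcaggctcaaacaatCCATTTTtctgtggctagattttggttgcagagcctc
Airn, chr17:12934459-12934758, minus strand: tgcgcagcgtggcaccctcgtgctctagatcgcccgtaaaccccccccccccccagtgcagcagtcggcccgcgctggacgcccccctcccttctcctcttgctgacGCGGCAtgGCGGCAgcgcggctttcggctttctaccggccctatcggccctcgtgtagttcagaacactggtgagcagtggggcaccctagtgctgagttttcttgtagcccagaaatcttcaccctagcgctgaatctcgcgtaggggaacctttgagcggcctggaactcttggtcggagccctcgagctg
Cdkn1c, chr7:150645276-150645575, minus strand: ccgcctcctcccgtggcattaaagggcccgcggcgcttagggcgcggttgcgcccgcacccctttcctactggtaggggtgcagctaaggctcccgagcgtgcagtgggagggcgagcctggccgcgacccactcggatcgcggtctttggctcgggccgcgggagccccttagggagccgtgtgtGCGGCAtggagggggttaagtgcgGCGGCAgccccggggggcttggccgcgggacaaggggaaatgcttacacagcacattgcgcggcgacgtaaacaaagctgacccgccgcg
The Peg3 window held 2 CCATNTT, 2 TGCCGC and 14 CG, and overlapped no exon. The Airn window held 24 CG and the Cdkn1c window 34.

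Differences between the sexes were counted over the regions in each strain. In B6, 7 of the 49 regions were male-only (called in males and not in females) and 6 female-only, against 13.3% and 13.3% of all regions. These were 14.3% and 12.2% of the 49. In CAST, 9 regions were male-only and 5 female-only, or 18.4% and 10.2%, against 17.4% and 11.4%. A region was called in 1 sex only in at least 1 strain in 23 cases, 46.9%, where the background was 49.2%. The calls that the strains shared were fewer: 3 male-only regions (6.12%, interval 2.1 to 16.5, against 2.35%) and 1 female-only region (2.04%, interval 0.361 to 10.7, against 1.23%). Each of these intervals took in the background share. Of the regions called in 1 sex in both strains, the female-only region of Grb10 alone lay near the first start of its gene.

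No region was called in a strain-specific manner, by both lists of a strain and by none of the other strain. The count was 0 of 49 for B6-only and 0 of 49 for CAST-only, with a Wilson upper limit of 7.27% for each, against 4.17% and 6.15% of all regions. Among the 26 regions called in the 4 lists, both CAST folds were above both B6 folds in 6 and both B6 folds above both CAST folds in 7, against 30.6% and 13.8% of all regions called in every list. The former included the Airn and Meg3 starts, and the latter the wide region upstream of Meg3 and chr11:11851186-11854412 of Grb10. The lists of the strains were called separately and on different genomes, and the part of this in the levels was not tested.

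For the regions called in both sexes of a strain, the ratio of male to female fold enrichment was centred near 1. In B6 the median over 29 regions was 0.996 and the range 0.616 to 1.36, and in CAST the median over 29 regions was 1.05 and the range 0.653 to 1.36. The medians of all regions were 0.992 and 1.05. No region had a ratio of 1.5 or more in favour of males in either strain, where 0.753% of all regions in B6 and 1.44% in CAST did. One region in each strain had a ratio of 1.5 or more in favour of females, where 0.564% of all regions in B6 and 0.399% in CAST did. Both belonged to the group near the first start of Grb10, chr11:11936245-11936907 in B6 and chr11:11937120-11937430 in CAST, and no region passed the limit in both strains.

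**Figure D4:**
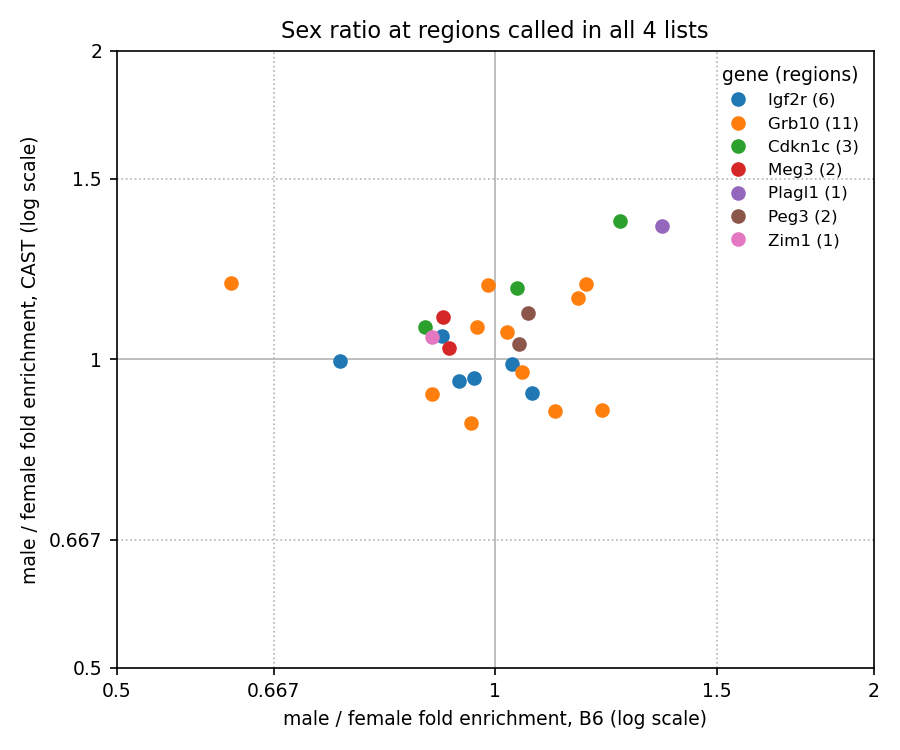
Ratio of male to female fold enrichment in B6 (x axis) and CAST (y axis), both on log scales, for the 26 regions called in the 4 lists, coloured by gene with the number of regions in the key. Dotted lines mark 1.5-fold in either direction. Only 1 region, of Grb10, lies beyond a dotted line, and a Cdkn1c region and the Plagl1 region have the highest ratios in both strains.

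Other imprinted genes were set beside the 10. Among 20 further paternally expressed genes found in the annotation, 12 had a promoter call in every list and 7 in none. Among 21 further maternally expressed genes, 12 had one in every list and 6 in none. Promoter calls in every list were thus found in 60.0% and 57.1% of these genes, beside 55.1% of all genes, with 36.0% of all genes having none. Called genes included Snrpn (4.24, 4.21, 5.10 and 4.93 fold in B6 males, B6 females, CAST males and CAST females), Phlda2 (4.17, 3.26, 4.51 and 3.72) and Dio3 (4.49, 6.09, 4.63 and 6.05). Dio3, the deiodinase gene at the far end of the Dlk1 cluster, had higher values in the female list of each strain. Peg12 and Tssc4 had a promoter call in the CAST lists and in neither B6 list, Peg12 at 4.74 and 3.81 fold and Tssc4 at 5.58 and 4.87 fold. Missing B6 peak numbers were not checked at these genes. The share of all genes with promoter calls in the CAST lists alone was not computed. Tssc4 neighbours Cd81, which had a promoter call in every list and the same 5.58 fold in CAST males. In the Dlk1 cluster, Rtl1 and Rian had no promoter call in any list.

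The genes that act with the imprinted growth factors were mostly marked. Of all genes, 55.1% had a promoter call in every list and 36.0% had one in none. Of 10 genes of the IGF axis, 9 had a promoter call in every list, with Igf1 at 1.97 to 2.36 fold, the receptor Igf1r at 3.27 to 3.68 and the insulin receptor Insr at 4.38 to 5.01. The other, Igfbp3, had a call in B6 females alone, at 2.95 fold. Igf2 thus stood apart from its receptors Igf1r, Insr and Igf2r in having no peak. Of 6 genes known from fetal liver, 2 had a promoter call in every list, Afp (2.80 to 3.37 fold) and Igf2bp3 (2.28 to 2.95 fold). Hmga2 had calls in 3 lists, and the other 3 genes had none.

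**Figure D5:**
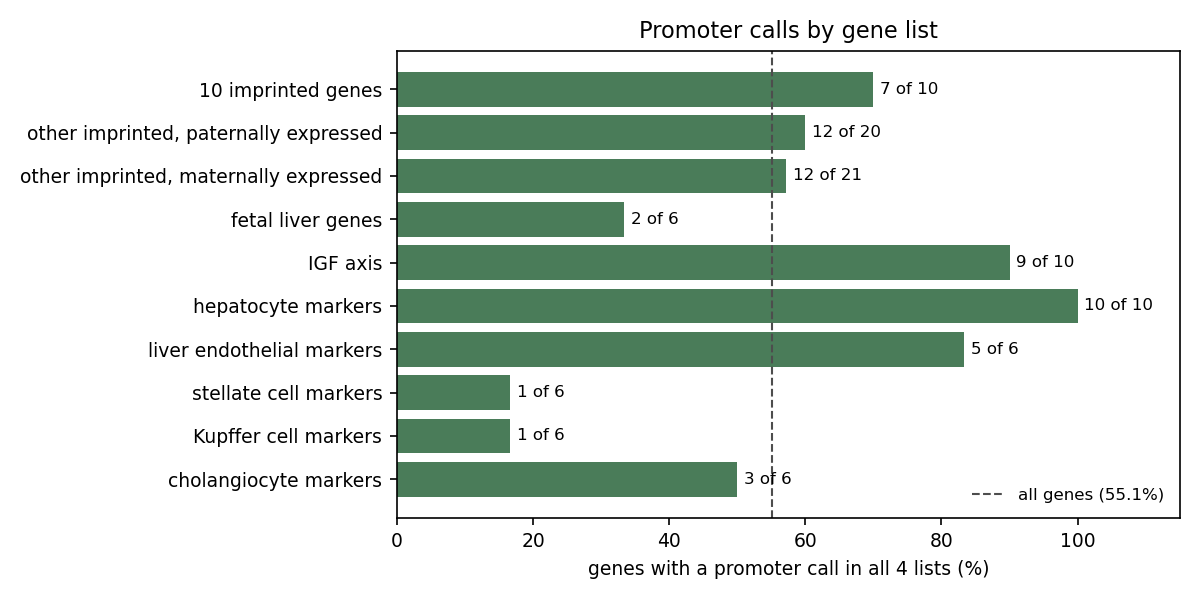
Share of genes, in percent, with an H3K27ac promoter call in all 4 lists, for the 10 imprinted genes and the lists set beside them, with the count of genes at the end of each bar. The dashed line marks all genes at 55.1%. The 10 imprinted genes (7 of 10) lie between the further imprinted genes (12 of 20 and 12 of 21) and the IGF axis (9 of 10).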

How the data were processed

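H3K27ac ChIP-seq of 20 livers and 4 inputs was deposited as 4 merged peak lists. The authors aligned B6 reads to mm9 and CAST reads to a custom CAST genome (coordinates then converted to mm9) with Bowtie2 (v2.2.9), keeping uniquely mapped reads. They combined the fastq files of the 5 livers of a group, called peaks with MACS2 (v2.1.1) over input, and removed blacklisted regions and duplicate-only peaks. A CAST region that could not be converted would be missing from those lists. Each deposited list gives a peak score, the fold enrichment (a ratio over background), −log10 p-value (not used) and −log10 q-value, with a lowest −log10 q of 1.30 to 1.32, so that each list ends near a q-value of 0.05, a limit read from the values. Peak names in a list carry the code of a single library. The lists were taken as merged because they are named so.

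From these, peaks overlapping by 1 bp were merged into union regions, a region's fold being the highest of its peaks in a list. Ranks are percentiles of the score, ties being ordered by the −log10 q-value. The 4 lists were compared by counts, shares with 95% Wilson intervals (statsmodels 0.14.6) and ratios, with 1.5 in place of a test. Livers are pooled in each list, so nothing was tested. Genes and sequences came from NCBIM37 (mm9) with GENCODE vM1. All peaks ended within their chromosomes, and coordinates are 1-based. Of 23 further paternally expressed genes, 20 were found in the annotation by symbol. Scripts (Python 3.11.15, pandas 2.3.3) were tested on simulated lists. The 10 genes, their lists and the limits were chosen with earlier results of these data known. For each gene the rule was to name its promoter region, the highest-ranked distal region, and regions called in 1 sex in both strains, in 1 strain only or past the ratio of 1.5 the same way in both strains. Others, at most 4 per list among the added gene lists besides Airn, were named for what they add, after their values were seen. Alternatives were the upper 50% of each list by score, equal list lengths, a promoter limit of 1 kb, the first start alone, no flank, a 25 kb flank, merging within 500 bp and a ratio of 1.25.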

Additional observations from a re-analysis of the deposited data

Results flagged for a closer look

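At a region near the first start of Grb10, chr11:11936245-11936907, the male to female ratio lay on opposite sides of 1 in the 2 strains. The male to female ratio of fold enrichment was 0.616 in B6, from 1.96 in males and 3.19 in females, and 1.19 in CAST, from 2.34 in males and 1.97 in females. The CAST ratio was under the 1.5 used as a limit. The B6 male and CAST female peaks ranked at percentiles 3.95 and 4.23, near the bottom of their lists. At both neighbouring regions CAST females were the higher, as were B6 females: chr11:11937120-11937430 had a ratio of 0.653 in CAST, and chr11:11937649-11938153 was called in females alone. Merging within 500 bp joined the 3 regions. The difference between the strains was not tested, because each value comes from 1 pooled list.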

How the results depend on the processing

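Of 23 alternative values, 15 stayed within 1.5 times the reported count. Keeping the top 50% of each list by score left 3 genes with a promoter call in every list in place of 7 (Igf2r, Peg3 and Grb10), 13 of 32 regions in all 4 lists in place of 26 of 49 (40.6% and 53.1%), 1 region called in 1 strain only in place of 0, and 0 regions past the 1.5-fold ratio in place of 2. Grb10 kept its call through regions near internal starts. Near its first start, its regions ranked no higher than percentile 3.95 in B6 males and 21.7 in CAST males. Regions called in 1 sex only numbered 23 of 49 as reported (46.9%), 15 of 35 with no flank (42.9%) and 13 of 37 when peaks up to 500 bp apart were merged (35.1%). With 25 kb on each side, 3 of 71 regions were called in 1 strain only. With the lower limit for the ratio, 5 regions passed, 2 with higher male and 3 with higher female values. Regions male-only in both strains numbered 3 as reported and between 2 and 4 under the alternatives, and regions female-only in both strains 1 as reported and 1 under each alternative except the merging, which gave 0. These are counts and do not say that the regions were the same. The shares over all genes and regions were not computed under the alternatives, so that these counts have no matching background.

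No paired analysis was possible because each list pools the 5 livers of its group, and for the same reason no replicate could be left out. Read depth was not analysed here, and a region missing from 1 list may have fallen just short of the limit of that list. The lists differ in length, and shortening each to 79862 peaks left 25 of 45 regions in all 4 lists.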
